A study of Mus musculus with 3 samples.

Results

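The 3p arms of the mouse hairpins numbered miR-6896 to miR-7094 form a block of consecutive numbers, and nearly all of those matched in RefSeq lie within the bounds of protein-coding genes. All array probes for a 3p arm with a number from miR-6896 to miR-7094, with any letter, were taken, apart from miR-6912. The rule used names alone and found 200 of the 1900 miRNA probes, from 198 hairpin numbers. The study measured plasma miRNA on 3 single-colour 3D-Gene arrays, 1 per group. All mice were C57BL/6, a common inbred strain, male and 8 weeks old, with no genetic alteration named. The control group was caged as normal, the aerobic group had done aerobic exercise and the resistance group resistance exercise. Every array held 1 pool of plasma from 3 mice, 100 µl each, drawn 3 h after a single bout in the exercised groups, and all animals had been fasted overnight. With a single array per group, nothing was tested and p-values are absent. Groups of 3 values below are in the order control, aerobic and resistance pool.

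A miRNA is a short RNA that guides Argonaute proteins to messenger RNAs, chiefly through its seed, bases 2 to 8. Most animal hairpins are cut from longer transcripts by Drosha and then by Dicer. In a mirtron the splicing machinery replaces Drosha: a short intron is spliced out, opened from its lariat and folded into a hairpin for Dicer. The end of such an intron is a run of pyrimidines followed by AG, the splice acceptor, and a 3p arm cut from it carries that end. Plasma miRNAs are released by cells of the blood, of vessels and of solid organs.

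RefSeq mature sequences (build GRCm38.p6) matched 176 of the 200 probes by name, and the other 24 are named only. The sequences of the 10 brightest probes are shown because these members stood farthest above the background. They are written 5′ to 3′, with the seed in capitals, and a final AG in capitals where there is one.
miR-7036b-3p: uUCCUGGUgggccucggggucc
miR-7045-3p: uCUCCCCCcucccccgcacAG
miR-7003-3p: cCCCGGGUuuuccccacAG
miR-7000-3p: cACCCACCugccuguccuccAG
miR-7082-3p: gCCCCCCUugcugucugucucc
miR-7046-3p: uGAACCACccaucccccuacAG
miR-7052-3p: gCUCUGCCcccuccuucccAG
miR-7028-3p: cCUUCUCUucccccucggccAG
miR-7036a-3p: cCGUCCUCauccgcuccucccAG
miR-6909-3p: uGCCUUCCccggccucccacAG

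Of these 10 sequences, all but miR-7036b-3p and miR-7082-3p end in AG. By RefSeq coordinates, miR-7036b-3p lies at chr5:34574192-34574213 on the plus strand within Add1, which encodes the membrane skeleton protein adducin. miR-7045-3p lies at chr6:125097066-125097086 on the plus strand within Chd4, a chromatin remodeller of the NuRD complex. miR-7003-3p lies at chr2:163068137-163068155 on the plus strand within Mybl2, a cell cycle transcription factor. miR-7000-3p (chr2:92387384-92387405, minus strand) lies within Mapk8ip1, a scaffold of the JNK pathway. miR-7082-3p (chr9:21075499-21075520, minus strand) lies within Raver1, an RNA-binding protein. miR-7046-3p (chr7:24970010-24970031, minus strand) lies within Rabac1, a membrane traffic protein. miR-7052-3p lies at chr7:44470391-44470411 (plus strand) within the deubiquitinase gene Josd2. miR-7028-3p lies at chr5:114719557-114719578 (plus strand) within Tchp, which encodes trichoplein. miR-7036a-3p lies at chr5:137296624-137296646 (minus strand) within Srrt, a factor of nuclear RNA processing. miR-6909-3p lies at chr10:79531029-79531050 (minus strand) within Plpp2, a lipid phosphatase. Whether each lies in an intron or an exon was not determined, since no exon annotation was used here.

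The 3p arms of the block differed from other arms in sequence features that the rule, which read names alone, did not use. The number range was, however, picked as a block of mostly intron-derived hairpins. These features and the gene positions below are thus not independent of that choice. Of the 176 sequences, 137 (77.8%) ended in AG, and 119 of them in CAG. The share was 6.29% among 175 sequences of 5p arms of the same block, 19.6% among 184 other 3p arms numbered 1000 or higher and 7.30% among 274 3p arms numbered below 1000. Pyrimidines made up 60% or more of the bases in 164 of the 176 sequences (93.2%), against 0 of the 5p arms of the block, 42.4% of other 3p arms numbered 1000 or higher and 21.2% of the 3p arms below 1000. The median length was 21.5 bases, with a range from 18 to 25. The annotated RefSeq hairpin ended exactly where the 3p sequence ended in 127 of 171 hairpins (74.3%), against 51.8% for other 3p arms numbered 1000 or higher and 5.43% for 3p arms numbered below 1000. These are properties of the reference sequences and carry no sampling error.

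The hairpins of the block lay almost wholly inside protein-coding genes. All but 1 of the 176 matched members had a hairpin within the bounds of such a gene, 3 of them within more than 1. The exception, miR-7094-3p, is the highest-numbered member. For 152 of them the RefSeq tables also gave the gene's strand, and in all 152 it was the strand of the hairpin. Per hairpin the share within a gene was 99.4% of 171, against 78.8% of 170 hairpins with another 3p arm numbered 1000 or higher and 44.2% of 258 hairpins with a 3p arm numbered below 1000. The hairpins were spread over 19 chromosomes, with 17 members each on chromosomes 7 and 11. At the 5′ side the intron signature was rare: of the 171 hairpins 161 ended in AG but only 23 started with GU, the splice donor, and 19 (11.1%) had both. Both were present in 2.99% of all 1005 mouse hairpins in the RefSeq table, those of the block among them. The share was 2.94% of the 170 hairpins with another 3p arm numbered 1000 or higher. It was 0.775% of the 258 with a 3p arm numbered below 1000.

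Hairpins of the following members show the forms, written 5′ to 3′ with a starting GU and a final AG in capitals. miR-7046 (chr7:24970010-24970075, minus strand) has both ends, miR-7045 (chr6:125097024-125097086, plus strand) the final AG alone, and miR-7036b (chr5:34574151-34574213, plus strand) neither.
miR-7046 hairpin: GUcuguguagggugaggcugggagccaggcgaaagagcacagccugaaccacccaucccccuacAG
miR-7045 hairpin: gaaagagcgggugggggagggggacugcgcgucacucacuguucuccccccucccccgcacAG
miR-7036b hairpin: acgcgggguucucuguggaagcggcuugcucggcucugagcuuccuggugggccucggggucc
In each of them the mature 3p arm shown above is the last stretch of the hairpin.

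**Figure D1:**
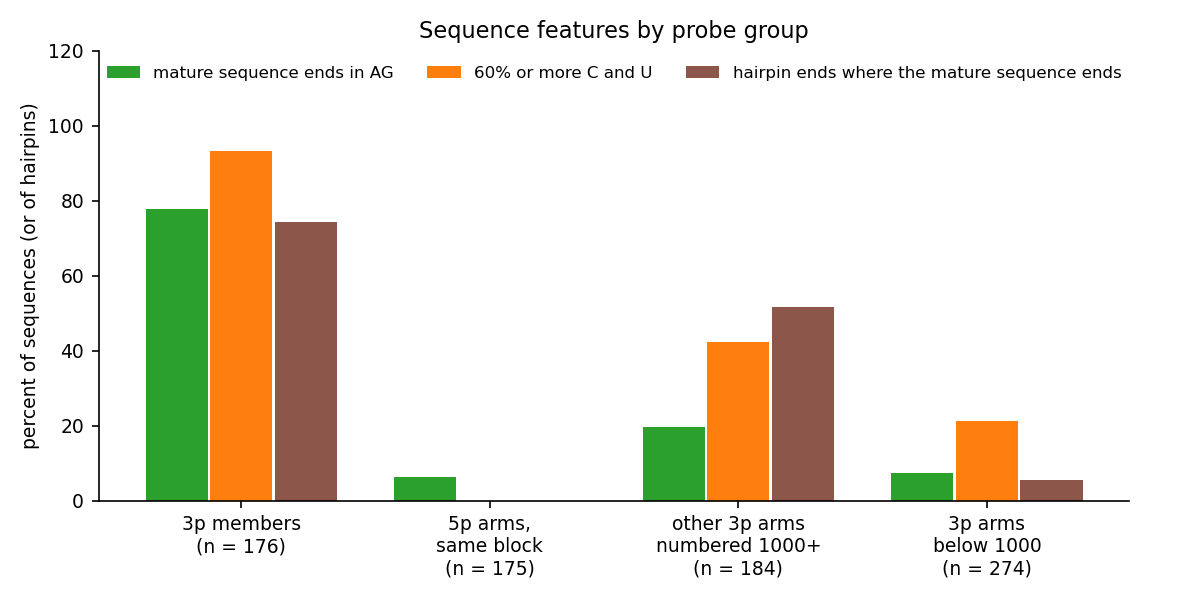
Bars give the percent of mature sequences that end in AG, the percent with 60% or more C and U, and the percent of hairpins that end where the mature sequence ends, for 4 probe groups (n under each group counts mature sequences). The 3p members stand at 77.8%, 93.2% and 74.3%, while the 3p arms numbered below 1000 stand at 7.30%, 21.2% and 5.43%.

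Seeds were nearly all different: the 176 sequences held 168 distinct seeds, and 15 members shared 7 of them. Pairs whose members were both detected on all 3 arrays are shown, grouped by seed.
miR-7023-3p: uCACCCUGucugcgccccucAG
miR-7068-3p: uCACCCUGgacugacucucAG
miR-6927-3p: cCUGAGCUggcuccccugcAG
miR-6945-3p: uCUGAGCUcugcccuucccau
miR-6932-3p: uCUGUUCUgcuuccucugcAG
miR-7039-3p: cCUGUUCUgcccucccuuccAG
miR-6973b-3p: uGCUCUCUuacccuuccuAG
miR-7063-3p: uGCUCUCUgccccucuuaAG
The seed of miR-6932-3p and miR-7039-3p is also that of miR-26a-2-3p and miR-26b-3p, the minor arms of the miR-26 family. For the first pair, miR-7023-3p (chr4:149655504-149655525, minus strand) lies within Pik3cd, which encodes a catalytic subunit of PI3-kinase in leukocytes, and miR-7068-3p (chr8:72470016-72470036, minus strand) within Cherp. For the second, miR-6927-3p (chr11:97677106-97677126, plus strand) lies within Mllt6 and miR-6945-3p (chr13:55507627-55507647, minus strand) within Pdlim7. miR-6932-3p (chr11:107637759-107637779, plus strand) lies within Helz and miR-7039-3p (chr5:144896732-144896753, minus strand) within the ubiquitin ligase gene Smurf1. miR-6973b-3p (chr2:131040326-131040345, minus strand) lies within Gfra4, a receptor of the GDNF family, and miR-7063-3p (chr7:141620772-141620791, plus strand) within the clathrin adaptor gene Ap2a2. A shared seed did not always go with a difference of the same sign between pools, on the scale described with the comparisons. Against control, the aerobic pool stood at 0.10 (log2) for miR-6927-3p and at -0.10 for miR-6945-3p. The resistance pool stood at 0.11 for miR-6932-3p and at -0.09 for miR-7039-3p. miR-6973b-3p and miR-7063-3p had the same sign in resistance against control, at -0.06 and -0.12. All of these lay, at the offset of 50, within the scatter of repeated spots given below.

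As a check of the material, the red cell miRNA miR-451a and the other blood, liver and vessel markers (7 of 7) were detected on all arrays, and 3 of 3 heart miRNAs were detected on none. A spot counted as detected where its raw intensity exceeded the array's mean blank spot by more than 2 SD of the blanks, that is above 94.8, 99.0 and 96.9. The chip also has 174 spots named No Probe, of which 78.7%, 4.02% and 20.1% passed this threshold. Detection near the threshold on the control array is thus also met by spots without a probe. Only technical error can be given: 2 SD of a difference between single spots was 0.32 (log2) from the bright spike-in spots. It was 0.43 from the repeated S-Probe7 spots, whose median raw intensity of 122 is close to that of the members, and 0.77 from the Negative Control 1 spots, whose median is 105. All are for the offset of 50 used in the background correction. None covers mice, pools or hybridizations.

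Most 3p arms of the block passed the detection threshold, but few were bright. Of the 200, 184 (92.0%), 181 (90.5%) and 172 (86.0%) were detected. Over all 1900 probes the shares were 75.3%, 71.8% and 72.2%. All arrays detected 171 members, 6 were missed on the resistance array alone, 12 were detected on 1 array and 11 on none. Of the 12, 7 were detected in the control pool alone, 4 in the aerobic pool alone and 1 in the resistance pool alone. This split was not made over all 1900 probes, and shares for pairs of arrays are given below. On the control array 78.7% of No Probe spots passed the same threshold. The 11 that were detected nowhere had raw intensities between 85.3 and 96.9. With the 95th percentile of the No Probe spots as the threshold, chosen after the data were seen, 154, 181 and 160 members (77%, 90.5% and 80%) passed, against 58.0%, 73.4% and 64.2% of all miRNAs, so the aerobic array then had the highest count. With 10 SD of the blanks in place of 2 SD, 136, 99 and 115 members (68.0%, 49.5% and 57.5%) passed, against 52.1%, 42.5% and 46.6% of all miRNAs. The higher share of members did not hold when the threshold was the brightest No Probe spot of each array. In control plasma 74 members (37%) then passed, against 36.3% of all miRNAs. In aerobic plasma 46 members (23%) passed, against 30.5%. In resistance plasma the share of members was also lower than the 31.9% of all miRNAs.

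The median raw intensity of the 200 probes was 116, 123 and 115, against blank means of 92.0, 92.9 and 93.3. The spots above 200 on all arrays numbered 9, and those above 150 numbered 22. In control plasma the range was 87.5 to 550, in aerobic 85.3 to 656 and in resistance plasma 88.4 to 452. No member was among the 100 brightest miRNA probes of any array, and 27, 29 and 24 were among the 500 brightest. The ranking of members was nearly the same on the arrays, with Spearman correlations over 200 probes of 0.98 for each pair of arrays. These correlations share the probes' own binding properties.

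**Figure D2:**
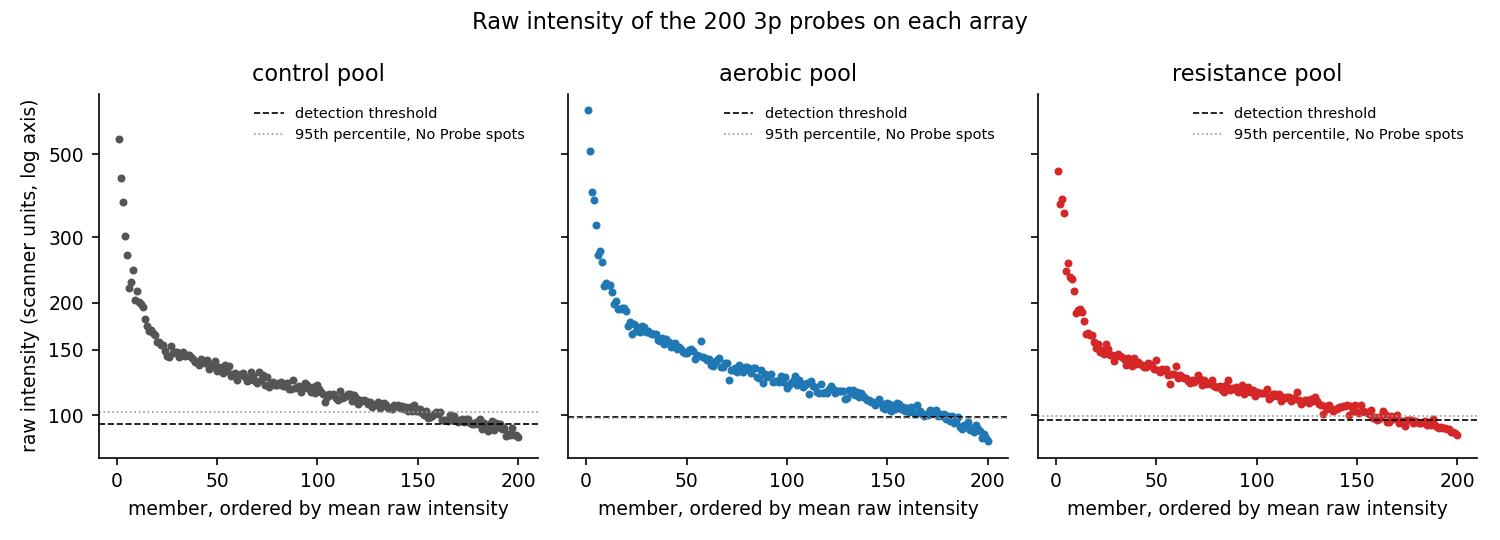
Each point is 1 of the 200 3p probes, ordered by mean raw intensity over the arrays, with raw intensity on a log axis in scanner units and 1 panel per pool. The dashed line is the detection threshold and the dotted line the 95th percentile of No Probe spots. Most points lie between 100 and 150 on each array, and 9 members exceed 200 on all of them.

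Their share of the signal was small. The 200 probes are 10.5% of all miRNA probes but carried 1.55%, 1.63% and 1.55% of the summed intensity above the blank mean. The 5p arms of the same block carried 12.0%, 12.1% and 11.8%. Probes differ in how well they bind, so shares of signal need not be shares of molecules. Less release from cells and release by fewer cells cannot be told apart in plasma. The 10 brightest members held 29.5%, 27.9% and 29.7% of the members' own signal.

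The values of the brightest members were as follows. miR-7036b-3p had raw intensities of 550, 656 and 452. miR-7045-3p had 430, 510 and 367. Both were lowest in resistance plasma and highest in aerobic plasma before scaling. miR-7003-3p stood at 372, 397 and 378, and miR-7000-3p at 301, 378 and 348. miR-7082-3p stood at 269, 322 and 243. These 5 held the first 5 places by mean intensity, and each was highest in the aerobic pool. Of all 200 members 171 (85.5%) had their highest raw intensity on the aerobic array, as had 71.6% of all miRNA probes, so raw values alone show no order of pools. miR-7046-3p stood at 219, 268 and 255 and miR-7052-3p at 228, 276 and 235. miR-7028-3p stood at 245, 257 and 232. miR-7036a-3p stood at 203, 222 and 215, and miR-6909-3p at 215, 227 and 188. Of the 10 brightest on each array 8 were the same on all arrays.

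**Figure D3:**
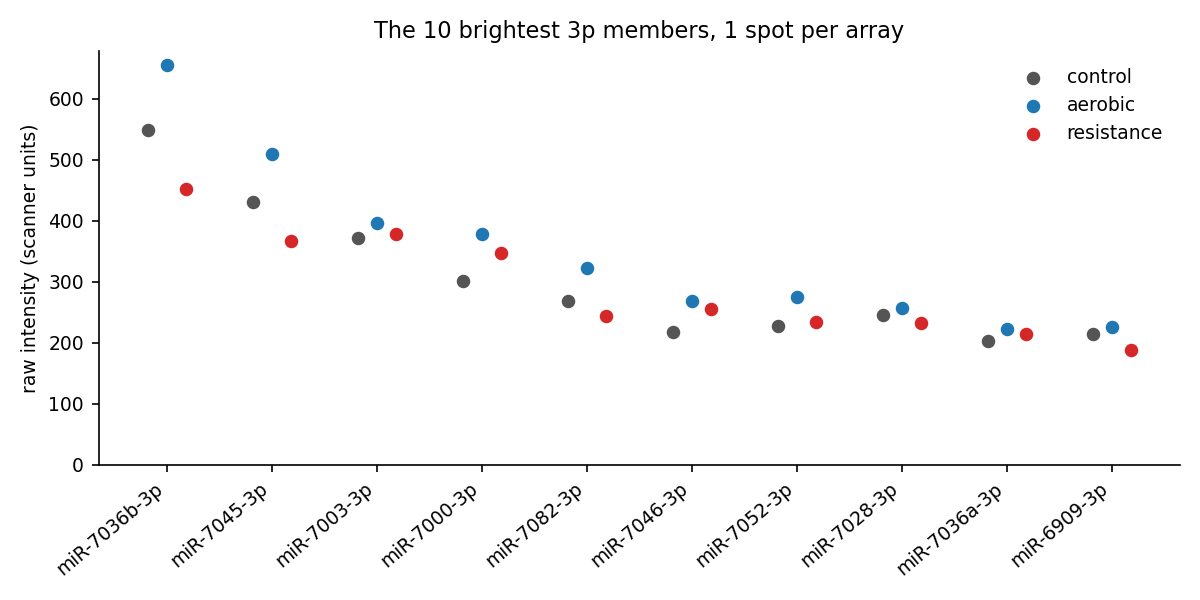
Points give the raw intensity (scanner units, axis from 0) of the 10 brightest 3p members, 1 spot per array, with control in grey, aerobic in blue and resistance in red. The aerobic spot is the highest for every one of the 10, from 222 for miR-7036a-3p to 656 for miR-7036b-3p.

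Brightness followed base composition. Over the 176 members with a sequence, raw intensity and the percent of C in the mature sequence had Spearman correlations of 0.79, 0.77 and 0.78. These points share 1 array, 1 labelling and 1 hybridization each, and the correlation is given as a description. The 44 sequences with the least C (12.5 to 33.3%) had a median raw intensity of 97.3 in control plasma, and the 44 with the most (47.6 to 66.7%) one of 147. In the former 10 of 44 passed the 10 SD threshold in control plasma, and in the latter 43 of 44. The corresponding correlations with C were 0.09 for 5p arms of the block and 0.37 for 3p arms below 1000 in control plasma. With G and C together, the correlation was 0.65 for the 3p members and 0.67 for all 1614 probes with a sequence. Whether C content acts through probe binding or through abundance was not tested. Ending in AG went with no like difference in brightness: the median in control plasma was 115.0 for the 137 that do and 115.5 for the 39 that do not.

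**Figure D4:**
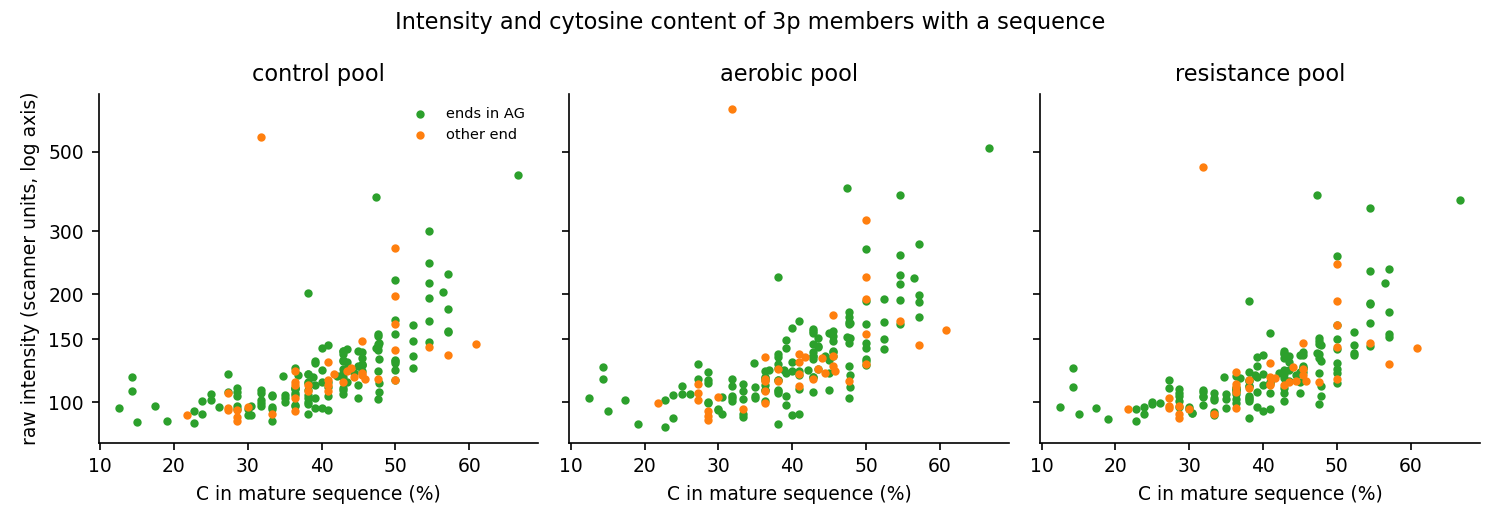
Each point is 1 of the 176 3p members with a sequence, with the percent of C on the horizontal axis and raw intensity on a log axis in scanner units, 1 panel per pool and colours for sequences that end in AG or not. Intensity climbs with C in each panel (Spearman 0.79, 0.77 and 0.78), and the brightest member, miR-7036b-3p, has 31.8% C, below the median of 40.9%.

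The first comparison asked whether the 3p arms differed between aerobic and caged plasma. They did so very little. Differences are of log2 intensities after background correction and quantile normalization, and a difference of 0.32 or more, which is also 2 SD of the spike-in spot scatter, was used as the limit. Of 177 members detected on both arrays 0 reached it in either direction, while 5.83% of all 1321 miRNAs compared did (3.79% higher and 2.04% lower). The median difference was 0.00, as it was for all miRNAs, and the extremes were -0.25 and 0.20. The offset of 50 pulls differences of dim spots towards 0. With an offset of 0, 9.04% of members and 19.3% of all miRNAs reached the limit.

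miR-6917-3p, within the gene of the growth factor receptor Erbb3, was the highest of the members, with raw intensities of 128, 158 and 121 and a difference of 0.20. miR-6949-3p, within the basophil protease gene Mcpt8, followed at 0.19, from raw intensities of 108, 128 and 115. Next were miR-6957-3p (0.13), miR-7009-3p within the annexin gene Anxa5 (0.12), miR-6988-3p (0.12) and miR-6941-3p within the Notch ligand gene Jag2 (0.11). On the lower side miR-6920-3p stood at -0.25, with raw intensities of 130, 125 and 128, the highest in the control pool. miR-6908-3p and miR-7028-3p stood at -0.18, miR-6936-3p, within the sirtuin gene Sirt7, and miR-7003-3p at -0.17 and miR-6913-3p at -0.16. None of these exceeded 2 SD of spot scatter with the offset of 50 used here.

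The second comparison set resistance against caged plasma. Again 0 of 171 members reached the limit at the offset of 50, against 8.76% of all 1336 miRNAs compared (5.54% higher and 3.22% lower). The median was -0.04, and 50 of 171 members (29.2%) stood above control, against 44.2% of all miRNAs. The lean was not particular to the 3p arms of the block. Its 5p arms had a median of -0.05 with 32.2% above control. Other 3p arms numbered 1000 or higher had -0.03 with 36.6%, and 3p arms below 1000 had 0.01 with 58.1%. By mean raw intensity, the median was 0.03 for 8 members under 100, -0.03 for 69 of 100 to 120 and -0.05 for 60 of 120 to 150. It was -0.08 both for the 22 members between 150 and 200 and for the 12 above 200. The offset of 50 compresses dim spots more than bright ones, and its part in this order was not tested.

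Several of the extremes were also among the 10 brightest members. miR-7046-3p was highest at 0.28 (1.22-fold), from raw intensities of 219 in control and 255 in resistance plasma. miR-6931-3p followed at 0.17 and miR-7000-3p at 0.16. Then came miR-7094-3p (0.12), miR-6932-3p (0.11) and miR-7012-3p (0.11). miR-6909-3p was lowest at -0.27 (1.21-fold lower), from 215 in control and 188 in resistance plasma. miR-7036b-3p stood at -0.25, miR-7045-3p at -0.24 and miR-7082-3p at -0.22. miR-6990-3p, within the nuclear receptor gene Esrra, stood at -0.19 and miR-7049-3p, within the kinase gene Pak4, at -0.17. All 12 lay within 2 SD of spot scatter at the offset of 50.

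The third comparison was of the exercise modes with each other. Of 171 members 1 reached the limit, on the lower side, against 3.21% of all 1307 miRNAs compared (1.91% higher and 1.3% lower). It was miR-6917-3p, at -0.33 or 1.26-fold lower in resistance than in aerobic plasma, with raw intensities of 121 and 158. This passes the spike limit of 0.32 but not the 0.43 of the dimmer S-Probe7 spots, and it was the lowest of 171 differences. In the authors' deposited table its fold was 1.80. The mature sequence, which lies at chr10:128584437-128584458 on the minus strand, is shown with its seed and final AG in capitals.
miR-6917-3p: gUCACUUCucuucccaccacAG
The next lowest were miR-7045-3p (-0.26), miR-7036b-3p (-0.25), miR-6990-3p (-0.22), miR-6916-3p (-0.21) and miR-7082-3p (-0.19). On the higher side stood miR-7046-3p and miR-7036a-3p (both 0.20), miR-6920-3p and miR-7003-3p (both 0.18), miR-6928-3p (0.17) and miR-6940-3p (0.14). The median of -0.04 compares with -0.01 for all miRNAs. It was -0.02 for 5p arms of the block, -0.01 for other 3p arms numbered 1000 or higher and 0.02 for 3p arms below 1000.

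**Figure D5:**
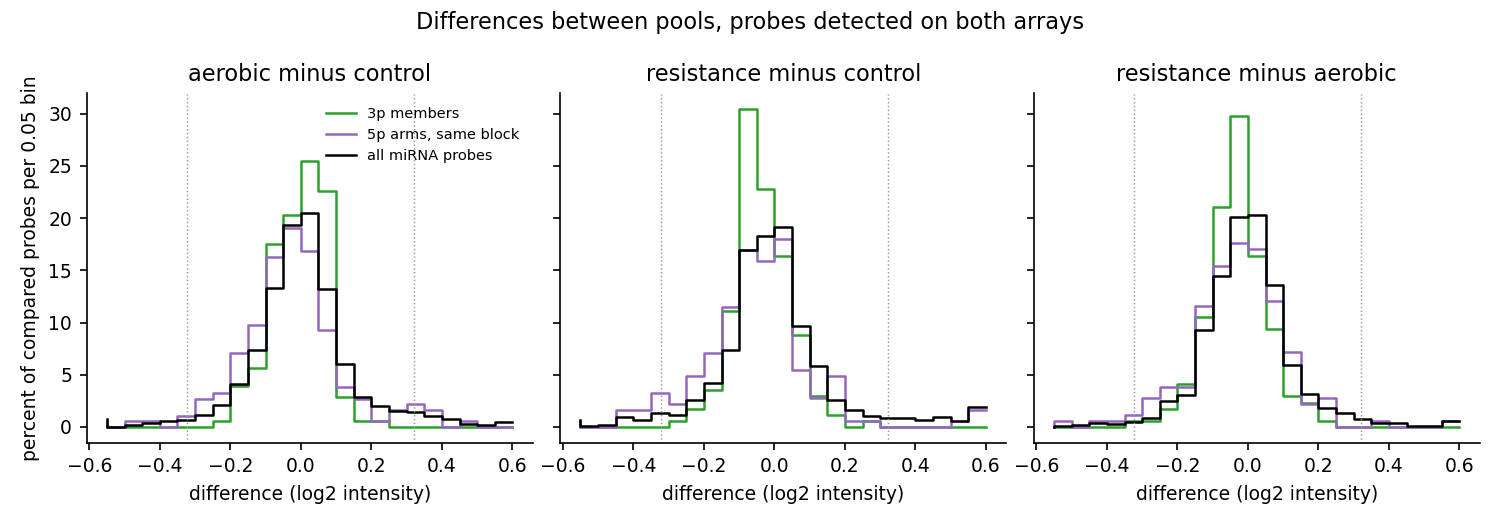
Lines give the percent of compared probes in each bin of log2 difference for the 3p members (green), the 5p arms of the block (purple) and all miRNA probes (black), with dotted lines at the limit of 0.32 on either side and values outside the range in the end bins. The 3p members lie inside the dotted lines apart from miR-6917-3p in resistance minus aerobic.

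No member reached 2-fold in any of the comparisons, where 0.227%, 0.299% and 0.153% of all miRNAs did. The offset of 50 added in the background correction pulls folds of such dim spots towards 1, since the median member lay only 23.7 above the blanks in control plasma. With an offset of 0, the members past the limit of 0.32 in the 3 comparisons numbered 16, 18 and 20 (9.04%, 10.5% and 11.7% of those compared), against 19.3%, 22.2% and 16.8% of all miRNAs. None reached 2-fold, against 0.833%, 0.749% and 0.383%. Of the 36 differences named above, 21 were larger than 2 SD of the spike-in spots at that offset, which was again 0.32. Examples are miR-6990-3p at -0.67 for resistance against control, miR-6957-3p at 0.56 and miR-6920-3p at -0.55 for aerobic against control. The S-Probe7 spots scattered more at an offset of 0, with 2 SD of 0.99, and 36 of the 36 lay within that. In the authors' deposited table the counts past that limit were 44, 51 and 43 (24.9%, 29.8% and 25.1%), against 32.2%, 38.8% and 28.2% of all miRNAs. The members at 2-fold or more in the authors' deposited table numbered 1, 4 and 2, against 2.2%, 2.92% and 2.3%. The 1 was higher, as were 1.29% of all miRNAs, and the 4 and the 2 were lower, as were 1.8% and 1.45%. In the authors' deposited table miR-6957-3p stood 2.22-fold higher in aerobic than in control plasma. Resistance plasma stood lower than control plasma in the authors' deposited table for miR-7060-3p (2.59-fold), miR-7091-3p (2.53-fold), miR-6990-3p (2.24-fold) and miR-6935-3p (2.03-fold). Against aerobic plasma, the authors' deposited table gave miR-7091-3p as 2.49-fold and miR-6990-3p as 2.41-fold lower. Of these, miR-7060-3p, miR-7091-3p and miR-6935-3p were chosen after their values were seen. All of these spots had raw intensities under 120, and the dimmer spot of each pair stood between 96.4 and 101. The aerobic and resistance differences share the control array.

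Members detected on 1 of 2 arrays have only a lower bound on their fold. It sets the detected value against the undetected spot, or against the lowest detected signal of that array where this is higher. The largest was at least 1.10-fold, for miR-6957-3p, with raw intensities of 106 in aerobic and 96.3 in resistance plasma, where it was not detected. miR-7006-3p was at least 1.07-fold lower in resistance than in control plasma, and miR-7061-3p at least 1.05-fold higher in aerobic than in control plasma. miR-7064-3p was at least 1.03-fold lower in aerobic than in control plasma, and miR-6984-3p at least 1.03-fold higher in resistance than in control plasma. The control spots of miR-7006-3p (100.0) and miR-7064-3p (97.7) lay below the 95th percentile of No Probe spots there, 101.9. The resistance spot of miR-6984-3p (97.6) lay below that of its array, 99.8. For these members the detected spot was no brighter than some spots without a probe. In all, 4 of the 200 members (2.0%) were detected in aerobic but not in control plasma and 7 (3.5%) the reverse, against 43 (2.26%) and 110 (5.79%) of all 1900 miRNAs. In resistance but not in control plasma there was 1 (0.5%), with 13 (6.5%) the reverse, against 36 (1.89%) and 95 (5.0%) of all miRNAs. In resistance but not in aerobic plasma there was 1 (0.5%), with 10 (5.0%) the reverse, against 65 (3.42%) and 57 (3.0%). All bounds named here lay within the spike-in scatter.

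Both arms of a hairpin come from 1 precursor, and 199 hairpins had a probe for each. Both arms were detected for 176, 167 and 159 of them. The 3p arm alone was detected for 7, 13 and 12, and the 5p arm alone for 13, 17 and 25. The threshold was passed by 75.3%, 71.8% and 72.2% of all miRNA probes. It was also passed by 78.7%, 4.02% and 20.1% of No Probe spots, so the control counts in particular include spots near background. Where both arms were detected on both arrays, they differed in the same direction in 85 of 165 hairpins (51.5%) for aerobic against control. The counts were 90 of 158 (57.0%) for resistance against control and 101 of 157 (64.3%) for resistance against aerobic. Pearson correlations over those hairpins were 0.11, 0.10 and 0.17, given as descriptions, since all points of a comparison share a pair of arrays. In the same hairpins the 5p arm reached the limit of 0.32 in 9, 15 and 7 cases and the 3p arm in 0, 0 and 1. Of all 5p arms of the block compared, 4.89%, 8.2% and 3.85% reached it, near the 5.83%, 8.76% and 3.21% of all miRNAs. The SD of the differences was 0.15, 0.19 and 0.14 for 5p and 0.07, 0.08 and 0.09 for 3p arms. The offset compresses dim spots more than bright ones, and the median 5p signal over the blanks was 99.1 in control plasma, against 23.7 for the 3p arms. How much of the narrower spread this makes was not tested.

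For single hairpins the arms could have opposite signs. miR-7009-3p stood at 0.12 for aerobic against control and miR-7009-5p at -0.32. miR-6988-3p stood at 0.12 and miR-6988-5p at -0.15 in that comparison. Each of these differences lay within 2 SD of the spike-in spot scatter, miR-7009-5p only just. For miR-7046, highest among 3p arms for resistance against control, the 5p arm stood at 0.16 against 0.28. For miR-6909, the lowest, the 5p arm stood at -0.20 against -0.27. miR-6917-5p stood at -0.19 for resistance against aerobic, beside -0.33 for its 3p arm.

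At the edges of the number range, miR-6896-3p had raw intensities of 107, 111 and 112, and miR-7094-3p 107, 115 and 115. The nearest 3p probes outside it were miR-6769b-3p, at 125, 131 and 124, and miR-7115-3p, at 146, 165 and 143.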

How the data were processed

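Per the labels' protocols, plasma was spun at 3000 g and at 16000 g for 10 min each, a miRNeasy kit served for extraction, and the dye was Cy5, called Hy5 in another label. Details of the scanner and of the exercise regimens were not given in the sources used here. A human chip is named in the series text, while all miRNA probes carry mouse names, which were used.

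The deposited scanner files hold raw intensity, background-subtracted intensity and the authors' globally normalized intensity, per the file headers. From the values, the authors left near-background spots empty and scaled each array's median to 25. The deposited value table repeats that intensity to within 0.05 on a linear scale, with a median of 25 in each column and no centring per miRNA.

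The background was the mean of 896 blank spots trimmed by 5% at each end (806 kept), which gave 0 differences from the authors' empty cells. Intensities of all 3200 spots were corrected with normexp (limma 3.58.1, R 4.3.3, offset 50), and the 1900 miRNA probes were quantile normalized as log2 values. The steps were tested on simulated data with signal scatter set near that of the spike-in spots (SD 0.11, log2). The S-Probe7 spots, as dim as the members, scattered more (0.15), so the simulation does not cover the noise of such spots. The limit of 0.32 in the text is a fold of 1.25. The members, lists and spot-scatter limits were chosen with earlier results of these data known. Named members are the 10 brightest, the 6 highest and 6 lowest of each comparison, up to 4 bounds each way, detected pairs with a shared seed, and the ends of the number range. For arrays, their number limits the precision. Alternatives are given in the closing section.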

Additional observations from a re-analysis of the deposited data

How the results depend on the processing

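No paired analysis was possible because each group has 1 array. Of the 36 differences named in the comparisons, all kept their sign with an offset of 0, with the blank mean subtracted, with median scaling and in the authors' deposited table. Their sizes did not hold: with an offset of 0, 21 of the 36 exceeded 2 SD of the spike-in spots, against 1 at the offset of 50. Without scaling between arrays 29 kept it and 7 did not. With no scaling, all miRNAs together had a median of 0.20 in aerobic minus control and -0.19 in resistance minus aerobic, and the members' medians became 0.19 and -0.20. The members' median for resistance against control became -0.21 in the authors' table, beside -0.13 for all miRNAs. There it was -0.18 for 5p arms of the block, -0.17 for other 3p arms numbered 1000 or higher and -0.04 for 3p arms below 1000. The count past the limit of 0.32, in the order aerobic against control, resistance against control and resistance against aerobic, was 16, 18 and 20 with an offset of 0. It was 32, 39 and 41 with the blank mean subtracted and 44, 51 and 43 in the authors' table. Of all miRNAs, 30.1%, 34.3% and 27.3% passed with subtraction, against 18.1%, 22.8% and 24.0% of members. With an offset of 0 and the 10 SD threshold, an alternative added after the data were seen, it was 3, 7 and 4 (3.0%, 6.1% and 4.1%, against 18.9%, 22.3% and 11.6% of all miRNAs). Median scaling gave 0, 1 and 4 (all miRNAs 7.95%, 8.91% and 6.81%), and no scaling 10, 0 and 17 (all miRNAs 19.3%, 8.91% and 19.1%). The count past 2-fold was 1, 3 and 3 with subtraction (0.56%, 1.75% and 1.75%, against 2.04%, 2.4% and 1.99% of all miRNAs). In the authors' table it was 1, 4 and 2 (all miRNAs 2.2%, 2.92% and 2.3%). Over all settings miR-6917-3p stood between -0.85 and -0.33 for resistance against aerobic. At 10 SD, 99 members were detected in aerobic plasma. Without the 3 brightest miRNAs of the chip the members' share of signal was 2.10%, 2.21% and 2.15% (control, aerobic, resistance). The cause of these shifts was not tested. With the median member near the blanks, differences of members under about 2 SD of spot scatter were not detectable on these arrays.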
